A study of Mus musculus with 12 samples.

Results

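The genes described here are 10 genes that corticosteroid hormones induce in many tissues: Sgk1, Ddit4, Tsc22d3, Nfkbia, Klf9, Klf15, Tiparp, Errfi1, Hif3a and Plin4. Their levels were read by RNA sequencing from the hippocampus of C57BL/6 adults, both wild-type mice (WT) and mice without the nuclear RNA-binding protein NONO (knockout, KO). Each genotype was collected under the labels CT10 and CT22, whose meaning the labels leave undefined, with 3 libraries in each of the 4 groups. The labels give no sex, no age beyond adult, no description of the Nono allele, and no word on whether each library is a different animal. p-values therefore measure only the spread between these libraries. The 10 genes are 10 of 23329 gene symbols in the tables, and all 10 were among the 14131 genes that passed the low-count filter. They were chosen by their values in KO against WT at CT10 and over both CT labels, so those values are given as a description, without a test. The comparisons of CT22 with CT10 share the CT10 libraries with that choice and are treated in the same way. Of the comparisons within 1 CT label or 1 genotype, KO against WT at CT22 is the one whose libraries did not enter the CT10 difference, and it alone was tested for these genes. The CT22 libraries did enter the difference over both labels.

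Corticosterone, the main glucocorticoid of the mouse, acts through the glucocorticoid receptor (Nr3c1) and the mineralocorticoid receptor (Nr3c2), both abundant in the hippocampus. The bound receptor enters the nucleus and binds glucocorticoid response elements, inverted repeats of a 6-base site separated by 3 bases, near the genes it activates. Blood corticosterone has a daily rhythm and rises in stress, and the genes named above are widely used as a readout of receptor activity. Their products act at different levels: a kinase (Sgk1), inhibitors of growth and inflammatory signalling (Ddit4, Errfi1, Nfkbia, Tsc22d3), transcription regulators (Klf9, Klf15, Hif3a), an ADP-ribosyltransferase (Tiparp) and a lipid droplet coat protein (Plin4).

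Library totals ran from 4435606 to 10911046 estimated counts. Nono itself, the check of the genotype labels, was at 166 ± 5.07 CPM (WT CT10) and 161 ± 9.64 CPM (WT CT22), against 0.128 ± 0.118 and 0.452 ± 0.237 CPM in the KO groups (SD, n = 3 each). CPM is the count of a gene per 1000000 counts of its library after TMM scaling. Dbp and Nr1d1, clock-driven genes, did not follow the CT label in 2 KO libraries. Dbp was at 70.5 to 95.0 CPM in WT CT10 and at 43.2 to 59.6 CPM in WT CT22. In KO CT10 replicate 3 it stood at 33.6 CPM, against 93.7 and 106 CPM in replicates 1 and 2. In KO CT22 replicate 1 it stood at 90.9 CPM, against 32.3 and 32.9 CPM in replicates 2 and 3. Nr1d1 had the same order, with 72.7 CPM in KO CT10 replicate 3 and 124.6 CPM in KO CT22 replicate 1. Both libraries thus lay with the other CT label by these genes. Whether the 2 libraries were exchanged was not tested, and if they were, the KO values printed under each CT label include 1 library of the other label. Changes of the 10 genes in KO against WT at each CT label are given with and without both libraries. So are Sgk1 transcript ratios to KO CT10 and those list counts that moved most. Within KO, changes from CT10 to CT22 are given both ways as the count lower and the median, and by gene for Hif3a and Plin4. Levels by library and group, the TPM order and the correlations are given with all 12 libraries. The hippocampal and neuronal markers Prox1, Wfs1, Grik4, Snap25 and Slc17a7 were detected, and no listed marker of any cell type was at 0 in all 12 libraries. In bulk RNA, fewer cells of a type and less RNA per cell cannot be told apart.

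Across the 4 groups the prevailing pattern was a high level in WT CT10 and a lower level in the other 3. For 8 of the 10 genes all 3 WT CT10 libraries lay above all 9 other libraries, an arrangement found in 0.665% of all genes tested (94 of 14131). Since the genes were chosen by the CT10 difference, nothing is read from that share. Klf9 and Plin4 were the exceptions. Without the 2 KO libraries that did not follow their label, 9 of the 10 genes had all 3 WT CT10 libraries above the 7 others, against 1.54% of all genes (218).

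**Figure D1:**
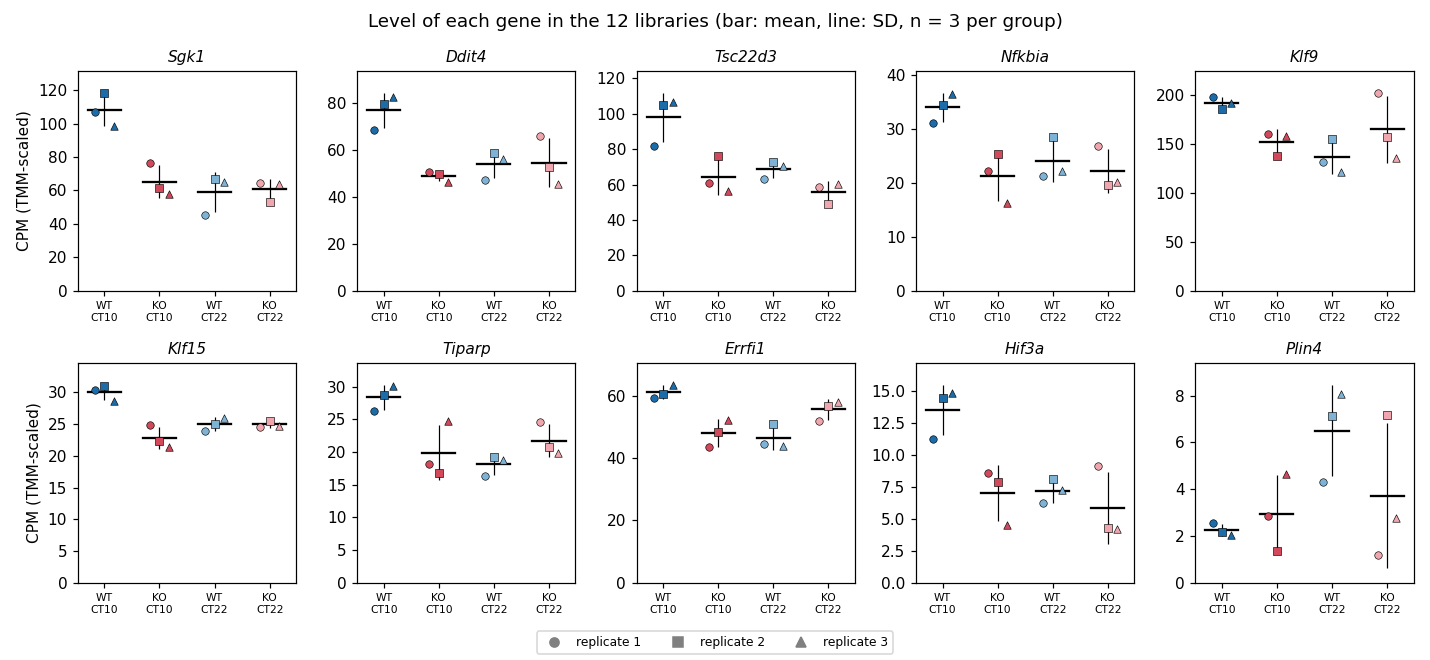
CPM (y axis, linear, from 0) of each of the 10 genes in the 12 libraries, by genotype and CT label (x axis). Points are libraries, with a marker for each replicate number, horizontal bars are group means and vertical lines the SD (n = 3). In 8 of the 10 panels the 3 WT CT10 points lie above the other 9, Klf9 has 1 KO CT22 library at the top, and Plin4 is lowest on average in WT CT10.

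Sgk1 encodes a serum- and glucocorticoid-regulated kinase that acts on ion channels and transporters downstream of PI3K. Its level was 107, 119 and 98.9 CPM in WT CT10, and 76.4, 61.5 and 57.6 CPM in KO CT10. At CT22 it was 45.1, 66.7 and 64.9 CPM in WT and 64.4, 53.3 and 64.0 CPM in KO. The WT CT10 libraries lay above all others, and the other 3 groups overlapped. The fitted log2 change of KO against WT at CT10 was −0.73 (SE 0.15), a level 1.66-fold higher in WT, and that of CT22 against CT10 in WT was −0.88 (SE 0.15). Counts ran from 238 to 1138 per library.

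The gene lies on chromosome 10 (GRCm38/mm10, 21882184 to 21999902, plus strand) and has 6 annotated transcripts in the tables, each with its own first exon and start. The estimation divided the Sgk1 reads mainly between 2 of them. The transcript from the last start (21994666) held 82.8, 94.3 and 79.6 CPM in WT CT10 and 54.7, 40.0 and 39.3 CPM in KO CT10. At CT22 it held 28.3, 46.4 and 41.7 CPM in WT and 41.0, 33.7 and 41.4 CPM in KO. The transcript from the first start (21882184) was at 18.1 to 22.1 CPM in WT CT10 and at 16.8 to 20.8 CPM in the 9 other libraries, so for it the groups overlapped. In KO CT10 the gene was 43.0 CPM lower than in WT CT10, of which the last-start transcript made up 40.9 CPM and the first-start transcript 1.47 CPM. In WT CT22 it was 49.3 CPM lower, of which they made up 46.8 and 2.31 CPM. The last-start transcript was thus 1.92-fold higher in WT CT10 than in KO CT10 and 2.20-fold higher than in WT CT22, while the ratios for the first-start transcript were 1.08 and 1.13. Without KO CT10 replicate 3 the 2 ratios to KO CT10 were 1.81 and 1.04. Its mean share of the gene's estimated count was 79.1% in WT CT10, 68.3% in KO CT10, 65.5% in WT CT22 and 63.8% in KO CT22. The other 4 starts held between 0 and 41.3 estimated counts per library. The split between transcripts is an estimate, since most of their sequence is shared.

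**Figure D2:**
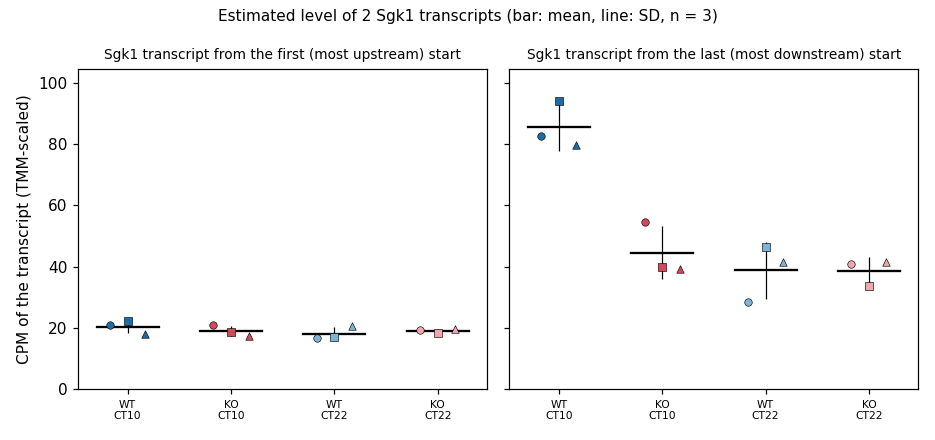
CPM (y axis, linear, from 0, the same in both panels) of the Sgk1 transcripts from the first start (left) and the last start (right) in the 12 libraries, by group (x axis). Points are libraries, bars are means and lines the SD (n = 3). The left panel is flat, with all libraries between 16.8 and 22.1 CPM, and in the right panel WT CT10 at 79.6 to 94.3 CPM stands above all others at 28.3 to 54.7 CPM.

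Promoter windows of Sgk1 are printed because its starts differed in level and because 1 of them holds the only full response element in the windows searched. The sequences run from 250 bases before each start to 20 bases from it, plus strand, from RefSeq on GRCm38.p6. Capitals mark the full response element (AGAACA, 3 bases, TGTTCT), single 6-base sites (AGAACA or TGTTCT) and the E-box CACGTG, which circadian clock proteins can bind.
Sgk1 last start, chr10:21994416-21994685: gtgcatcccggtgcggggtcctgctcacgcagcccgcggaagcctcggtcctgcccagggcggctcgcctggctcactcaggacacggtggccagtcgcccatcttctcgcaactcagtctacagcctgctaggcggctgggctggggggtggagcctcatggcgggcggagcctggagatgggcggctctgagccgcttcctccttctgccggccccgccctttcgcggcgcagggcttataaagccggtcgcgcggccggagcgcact
Sgk1 start at 21993890, chr10:21993640-21993909: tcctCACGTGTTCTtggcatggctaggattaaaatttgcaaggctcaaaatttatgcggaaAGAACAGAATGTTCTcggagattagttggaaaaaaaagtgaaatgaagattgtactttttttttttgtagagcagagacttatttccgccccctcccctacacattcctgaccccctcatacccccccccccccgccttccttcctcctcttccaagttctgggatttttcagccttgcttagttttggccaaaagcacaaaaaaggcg
Sgk1 first start, chr10:21881934-21882203: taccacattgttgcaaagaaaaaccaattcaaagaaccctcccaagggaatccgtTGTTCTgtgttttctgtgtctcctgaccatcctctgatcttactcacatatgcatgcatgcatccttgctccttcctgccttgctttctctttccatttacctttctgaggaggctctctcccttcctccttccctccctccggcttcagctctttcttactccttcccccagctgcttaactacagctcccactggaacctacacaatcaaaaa
The window of the last start, the one whose transcript differed between groups, holds none of these motifs. The neighbouring window holds the full element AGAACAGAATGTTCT at chr10:21993701-21993715, which begins 189 bases before the start at 21993890 and 965 bases before the last start. In the same window the E-box overlaps a single 6-base site. The first-start window holds 1 single 6-base site. Motifs were searched on both strands, and a match describes the letters only.

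Across the RefSeq table, 18 windows of 300 bases matched the 10 genes by symbol. They did not cover every counted start. For the Tsc22d3 start at 140543185 the nearest RefSeq start lay 517 bases away, and the Hif3a start at 17056679 had no window. The full element stood in 1 of them and in 3 of all 32544 distinct windows (0.00922%). The relaxed form (GNACA, 3 bases, TGTNC) was found in the same 1 window and in 0.476% of all windows, and every full element is also a relaxed one. A 6-base site stood in 4 windows, of Sgk1 and Tsc22d3, and in 18.9% of all windows. The E-box stood in 2 windows, of Sgk1 and Klf15, and in 7.17% of all windows. The median GC content was 60.7% in the 18 windows and 53.0% in all. Klf15 is shown because its window holds 3 E-boxes, marked in capitals, the last of them across the RefSeq start at 90462576. The counted Klf15 transcript starts at 90462626, 50 bases downstream of that RefSeq start.
Klf15, chr6:90462326-90462595: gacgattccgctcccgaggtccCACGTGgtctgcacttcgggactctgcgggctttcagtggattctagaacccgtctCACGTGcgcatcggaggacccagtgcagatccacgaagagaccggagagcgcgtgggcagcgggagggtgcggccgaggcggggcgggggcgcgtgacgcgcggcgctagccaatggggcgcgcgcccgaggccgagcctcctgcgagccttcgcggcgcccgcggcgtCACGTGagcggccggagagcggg

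Ddit4 and Errfi1 encode feedback inhibitors of growth signalling. Ddit4 (chromosome 10, 59949675 to 59951770, minus strand) encodes a stress-induced inhibitor of mTOR signalling. It was at 68.6, 79.9 and 82.7 CPM in WT CT10 against 50.6, 49.7 and 46.4 CPM in KO CT10, and at CT22 47.2, 58.6 and 56.2 CPM in WT against 66.0, 52.7 and 45.4 CPM in KO. WT CT10 did not overlap any other group, although KO CT22 replicate 1 came within 2.59 CPM of its lowest library. The log2 change of KO against WT was −0.66 (SE 0.13) at CT10. Errfi1 (chromosome 4, 150855091 to 150868880, plus strand) encodes an inhibitor of the EGF receptor family. It was at 59.2, 60.6 and 63.5 CPM in WT CT10 against 43.4, 48.3 and 52.2 CPM in KO CT10, and at CT22 44.3, 50.9 and 43.9 CPM in WT against 51.9, 56.7 and 58.0 CPM in KO. KO lay below WT at CT10 and above WT at CT22, with no overlap at either label, and its log2 change at CT10 was −0.35 (SE 0.10).

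Nfkbia and Tsc22d3 encode 2 anti-inflammatory proteins, IkappaBalpha, which holds NF-kappaB in the cytoplasm, and GILZ. Nfkbia (chromosome 12, 55489409 to 55492647, minus strand) was at 31.1, 34.4 and 36.4 CPM in WT CT10 against 22.1, 25.3 and 16.3 CPM in KO CT10, and at CT22 21.3, 28.4 and 22.2 CPM in WT against 26.9, 19.5 and 20.1 CPM in KO. Its log2 change of KO against WT at CT10 was −0.68 (SE 0.17), and the 3 groups other than WT CT10 overlapped. Tsc22d3 (chromosome X, 140539529 to 140600522, minus strand) was at 81.9, 105 and 107 CPM in WT CT10 against 60.9, 76.3 and 56.1 CPM in KO CT10, and at CT22 63.0, 72.8 and 70.6 CPM in WT against 58.4, 48.9 and 60.3 CPM in KO. It was the only one of the 10 genes with every KO library below every WT library at both CT labels. Its log2 change of KO against WT was −0.61 (SE 0.13) at CT10. Unlike Sgk1, its 2 transcripts kept similar shares: the one from 140543185 held a mean of 92.4%, 92.5%, 90.5% and 93.9% of the gene's count in WT CT10, KO CT10, WT CT22 and KO CT22.

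Klf9 and Klf15 encode Krüppel-like zinc finger transcription factors that cooperate with the glucocorticoid receptor. Klf9 (chromosome 19, 23141226 to 23166911, plus strand) was at 197, 185 and 191 CPM in WT CT10 against 160, 138 and 158 CPM in KO CT10, and at CT22 131, 155 and 121 CPM in WT against 202, 157 and 135 CPM in KO. The highest of the 12 libraries was KO CT22 replicate 1, 1 of the 2 libraries that did not follow their label. The log2 change of KO against WT at CT10 was −0.33 (SE 0.13). Klf15 (chromosome 6, 90462626 to 90475209, plus strand) was at 30.4, 30.9 and 28.6 CPM in WT CT10 against 24.8, 22.3 and 21.5 CPM in KO CT10, and at CT22 23.9, 25.0 and 26.0 CPM in WT against 24.6, 25.6 and 24.8 CPM in KO. It had the narrowest spread of the 10 genes within KO CT22, with an SD of 0.525 CPM around a mean of 25.0 CPM, and its log2 change at CT10 was −0.39 (SE 0.10).

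Hif3a, Tiparp and Plin4 completed the set. Hif3a (chromosome 7, 17030993 to 17062427, minus strand) encodes a HIF subunit of which some forms restrain the hypoxia response. It was at 11.2, 14.5 and 14.8 CPM in WT CT10 against 8.61, 7.88 and 4.55 CPM in KO CT10, and at CT22 6.20, 8.12 and 7.24 CPM in WT against 9.12, 4.26 and 4.23 CPM in KO. Its log2 changes of KO against WT at CT10 (−0.95, SE 0.28) and of CT22 against CT10 in WT (−0.91, SE 0.27) were the furthest below 0 of the 10 genes. The estimation gave all of its reads to 1 of its 2 transcripts in 11 of 12 libraries, and not to the same one, so its transcripts are not described. Tiparp (chromosome 3, 65528447 to 65555518, plus strand) encodes an ADP-ribosyltransferase that represses the aryl hydrocarbon receptor. It was at 26.3, 28.7 and 30.1 CPM in WT CT10 against 18.3, 16.8 and 24.7 CPM in KO CT10, and at CT22 16.3, 19.3 and 18.8 CPM in WT against 24.7, 20.8 and 19.8 CPM in KO, so that KO lay below WT at CT10 and above it at CT22. The log2 change of Tiparp in KO against WT at CT10 was −0.505 (SE 0.144). Plin4 (chromosome 17, 56100591 to 56109802, minus strand) encodes a perilipin of lipid droplets. It was at 2.56, 2.19 and 2.06 CPM in WT CT10 against 2.83, 1.36 and 4.66 CPM in KO CT10, and at CT22 4.30, 7.13 and 8.07 CPM in WT against 1.202, 7.17 and 2.78 CPM in KO. Plin4 ran against the other genes in WT, where every CT22 library lay above every CT10 library (log2 change 1.51, SE 0.52), on 9 to 88 counts per library.

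As a set, 9 of the 10 genes had every KO CT10 library below every WT CT10 library, Plin4 being the exception. This arrangement was found in 5.43% of all genes, and since the contrast chose the genes nothing is read from it. Their median log2 change at CT10 was −0.56, from −0.95 to 0.41, with a median of 0.005 over all genes tested. From CT10 to CT22 in WT the same 9 genes had all CT22 libraries below all CT10 libraries, against 8.54% of all genes, with a median of −0.51. Both comparisons rest on the same 3 WT CT10 libraries. In KO, CT22 against CT10 gave overlapping libraries for all 10 genes, where 7.96% of all genes did not overlap in one direction or the other. The median there was 0.12, with log2 changes from −0.20 to 0.21 and 3 genes lower. Without the 2 KO libraries that did not follow their label, 6 of the 10 genes were lower in CT22 against CT10 within KO and the median was −0.04. Among them Hif3a moved from −0.20 to −0.96 (SE 0.24), and Plin4, higher in both cases, from 0.14 to 1.10 (SE 0.49). At CT10 all 10 genes were then lower in KO, with a median of −0.52. These log2 changes at CT10 were −0.65 for Sgk1, −0.62 for Ddit4, −0.42 for Errfi1, −0.52 for both Nfkbia and Tsc22d3, −0.36 for Klf9, −0.35 for Klf15, −0.71 for Hif3a, −0.70 for Tiparp and −0.07 for Plin4, the gene that changed sign.

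**Figure D3:**
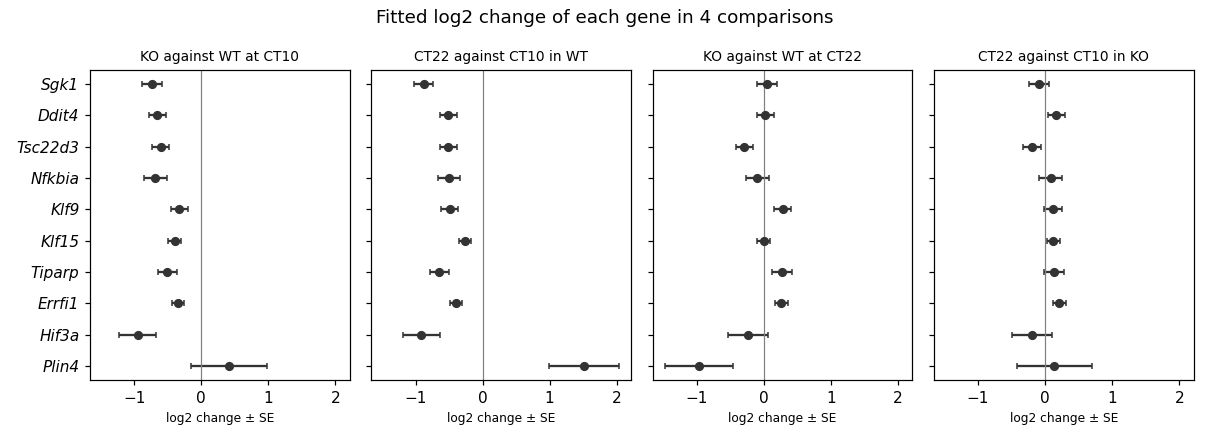
Fitted log2 change (x axis) with its SE (bars) for each of the 10 genes (y axis) in 4 comparisons, all from 1 model of the 12 libraries. In the left pair of panels, which share the WT CT10 libraries, 9 genes lie below 0 and Plin4 above, and in the right pair the genes lie on both sides of 0.

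At CT22 the 10 genes did not pass the threshold between KO and WT. The CT22 libraries entered the difference over both labels, by which the genes were also chosen. The p-values and counts below are therefore not independent of that choice. By edgeR's quasi-likelihood test with Benjamini-Hochberg adjustment over 14131 genes, 0 of 10 passed an adjusted p of 0.05, and of all genes 0.0142% passed (2, Nono and its paralog Sfpq). An unadjusted p under 0.05 was found for 3 of the 10 and for 10.9% of all genes (1543 of 14131). DESeq2 called 0 of the 8 genes to which it gave an adjusted p (not Hif3a and Plin4), against 0.317% of all genes (30 of 9473). Of the 10 genes 5 were lower and 5 higher in KO, with a median log2 change of 0.01, against 0.004 over all genes. Sgk1 stood at 60.6 ± 6.29 CPM in KO and 58.9 ± 11.98 CPM in WT (SD, n = 3 each), a log2 change of 0.05 (SE 0.15, edgeR adjusted p = 0.922). Ddit4 had a log2 change of 0.02 (SE 0.13, edgeR adjusted p = 0.959) and Nfkbia of −0.10 (SE 0.17, edgeR adjusted p = 0.851), which was −0.28 (edgeR adjusted p = 0.614) without the 2 libraries that did not follow their label. The SE of these values leaves room for changes in either direction. Errfi1 had 55.5 ± 3.21 CPM in KO and 46.4 ± 3.94 CPM in WT (a log2 change of 0.26, SE 0.10, edgeR adjusted p = 0.407). Tsc22d3 had 55.9 ± 6.13 CPM in KO and 68.8 ± 5.11 CPM in WT (log2 change −0.29, SE 0.13, edgeR adjusted p = 0.438). Klf9 (log2 change 0.28, SE 0.13, edgeR adjusted p = 0.454) and Tiparp (0.27, SE 0.15, edgeR adjusted p = 0.505) had the other values above 0.1. The value of Klf9 was 0.09 (edgeR adjusted p = 0.804) without the 2 libraries. Plin4 had the lowest value (−0.97, SE 0.51, edgeR adjusted p = 0.504), which was −0.49 without the 2 libraries. Hif3a moved from −0.23 (SE 0.29, edgeR adjusted p = 0.779) to −0.77 (SE 0.22, edgeR adjusted p = 0.524) without them. Sgk1 and Ddit4 changed sign, to −0.004 and −0.15, and Tiparp went to 0.15, Tsc22d3 to −0.33 and Errfi1 to 0.30. Klf15 had −0.005 (SE 0.097, edgeR adjusted p = 0.990) with all libraries and −0.0 without the 2 libraries. Counted by library, 1 of the 10 genes (Tsc22d3) had all KO below all WT libraries, against 6.49% of all genes, and 2 (Tiparp and Errfi1) had all KO above all WT libraries, against 7.25%.

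The 2 libraries that lay with the other CT label by Dbp had the following places within their groups for the 10 genes. KO CT10 replicate 3 was the lowest of its group for 6 genes (Sgk1, Ddit4, Tsc22d3, Nfkbia, Klf15 and Hif3a) and the highest for Tiparp, Errfi1 and Plin4. KO CT22 replicate 1 was the highest of its group for 6 genes (Sgk1, Ddit4, Nfkbia, Klf9, Tiparp and Hif3a) and the lowest for Klf15, Errfi1 and Plin4. In a group of 3 libraries, any library is often the highest or the lowest. The share of all genes with such places was not counted, so nothing is read from these counts. The part of these libraries' clock state in the values of the 10 genes was not tested.

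To compare levels between genes, the deposited TPM values, which account for transcript length, were used. In WT CT10 the order was Klf9 (147 ± 2.92 TPM), Tsc22d3 (126 ± 18.7), Ddit4 (117 ± 11.8), Sgk1 (107 ± 10.8), Nfkbia (55.3 ± 4.53), Errfi1 (50.8 ± 1.97), Klf15 (33.1 ± 1.56), Tiparp (17.1 ± 1.26), Hif3a (4.84 ± 0.751) and Plin4 (0.977 ± 0.106; all in TPM, SD, n = 3). The intervals of 1 SD overlapped between neighbours among the first 4 and between Nfkbia and Errfi1, and not between the other neighbours. In the other groups Klf9 stayed first, at 118 ± 13.6 TPM in KO CT10, 103 ± 14.3 TPM in WT CT22 and 132 ± 27.0 TPM in KO CT22. Sgk1, the fourth in every group, was at 63.1 ± 11.3, 55.5 ± 9.99 and 60.4 ± 6.86 TPM. Plin4 was last except in WT CT22, where its 2.74 ± 0.720 TPM and the 2.54 ± 0.284 TPM of Hif3a lay within 1 SD of each other.

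The genes varied together across libraries to different degrees, which is described here without a test since all share the libraries that chose them. Pearson's r of log2 CPM over the 12 libraries lay between 0.29 and 0.93 in the 36 pairs without Plin4, with a median of 0.72. Nfkbia and Hif3a (0.93), Ddit4 and Nfkbia (0.90), and Ddit4 and Hif3a (0.88) were the closest pairs. Errfi1 and Hif3a (0.29) and Tsc22d3 and Klf9 (0.36) were the most distant, while Klf9 and Tiparp (0.82) and Tiparp and Errfi1 (0.80) were close. The 9 pairs with Plin4 lay between −0.52 and −0.11. The mean standardised level of the 10 genes was 0.91 to 1.24 in the WT CT10 libraries. The next highest libraries were WT CT22 replicate 2 (0.10) and KO CT22 replicate 1 (0.05), and the lowest was WT CT22 replicate 1 (−0.79).

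Among 13065 other genes with a mean of at least 2 CPM, the 10 whose log2 CPM was most like that mean over the 12 libraries were Klf10 (r = 0.909), Ppif (0.880), Crlf3 (0.863), Akap1 (0.861), Elovl2 (0.854), Fcgbp (0.848), Adhfe1 (0.835), Txnip (0.833), Gpt2 (0.830) and Arrdc2 (0.826). Klf10, another Krüppel-like factor, was at 36.5 ± 1.37 CPM in WT CT10, 27.6 ± 1.03 CPM in KO CT10, 29.9 ± 1.42 CPM in WT CT22 and 30.2 ± 3.62 CPM in KO CT22 (SD, n = 3 each). Txnip, which encodes an inhibitor of thioredoxin and glucose uptake, was at 41.9 ± 6.07, 30.8 ± 4.45, 27.2 ± 1.65 and 31.2 ± 2.96 CPM in the same order. Elovl2, a fatty acid elongase gene, was at 23.7 ± 0.682, 17.4 ± 1.74, 17.8 ± 1.89 and 18.7 ± 3.31 CPM. Ppif, the gene of mitochondrial cyclophilin D, had smaller steps, from 33.7 ± 0.679 CPM in WT CT10 to 29.7 ± 0.129 CPM in KO CT10. The 12 points share their libraries and depth with the mean they were compared with.

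**Figure D4:**
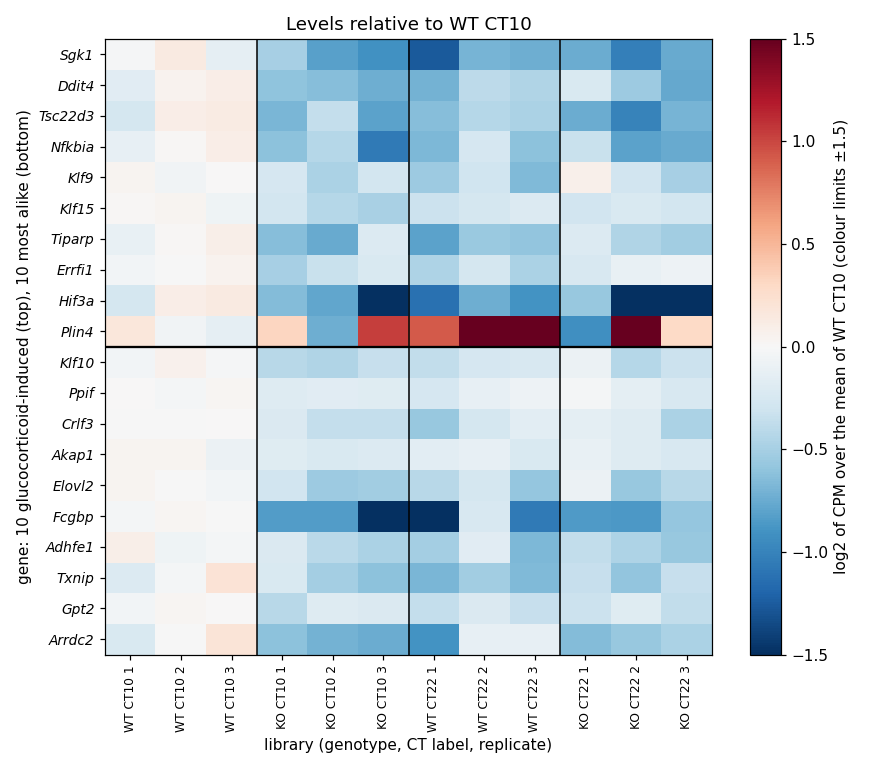
Colour map of log2 CPM relative to the mean of WT CT10 (colour scale limited to ±1.5) for the 10 glucocorticoid-induced genes (upper rows) and the 10 genes most like their mean (lower rows), in the 12 libraries (columns, by group). Blue (lower) fills the 9 columns outside WT CT10 for most rows, Klf9 is red in KO CT22 replicate 1, and Plin4 is mostly red (higher) outside WT CT10.

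Other glucocorticoid-responsive genes were read for comparison. A list of 36 other such genes, which overlaps none of the 10, had 23 lower in KO at CT10 (median log2 change −0.10), 22 lower in KO at CT22 (−0.04), 22 lower in CT22 against CT10 within WT (−0.04) and 17 lower in the same step within KO (0.01). In edgeR 0 of 36 passed in any of these comparisons, and of all genes 0.00708% passed at CT10 (1, Nono), 0.0142% at CT22, and 0% in each step from CT10 to CT22. An unadjusted p under 0.05 was found for 3, 2, 7 and 0 of the 36, and for 3.09% (436), 10.9% (1543), 6.76% (955) and 3.16% (447) of all genes. DESeq2 called 0 of the list in each, with an adjusted p for 26 of the 36 at CT22, and its share of all genes was 0.0212% (3) at CT10, 0.317% at CT22, 0.0283% (4) in the WT step and 0% in the KO step. Without the 2 KO libraries that did not follow their label, 25 of the 36 were lower in KO at CT10 (median −0.14) and 23 at CT22 (−0.10), with 0 past the threshold and 5 and 2 at an unadjusted p under 0.05. In the KO step 17 were then lower (0.002), and 5 had an unadjusted p under 0.05. In 1 of the 36, Txnip, all 3 WT CT10 libraries lay above the other 9, against 0.665% of all genes. At CT10 every KO library lay below every WT library for 5 of the 36, against 5.43% of all genes (767 of 14131). Every KO library lay above every WT library for 1 of the 36, beside 693 of the 14131 genes. Fkbp5, a classical target that encodes a co-chaperone limiting receptor activity and that was singled out after its values were seen, was at 87.1 ± 1.90 CPM in WT CT10, 89.8 ± 5.69 CPM in KO CT10, 79.6 ± 12.3 CPM in WT CT22 and 82.9 ± 18.2 CPM in KO CT22 (KO against WT at CT10: log2 change 0.04, SE 0.14, edgeR adjusted p = 1.00). Per1, a clock gene that glucocorticoids also induce, singled out in the same way, was at 111 ± 9.74, 96.5 ± 4.28, 94.9 ± 6.03 and 105 ± 12.1 CPM (log2 change at CT10 −0.20, SE 0.10, edgeR adjusted p = 1.00).

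The 6 genes of that list with the highest mean CPM, a scale that does not account for transcript length, had log2 changes between −0.11 and 0.15 at CT10. They were Glul, which encodes glutamine synthetase (from 1699 ± 85.5 CPM in WT to 1582 ± 105 in KO, log2 change −0.10), Fam107a (−0.10), the small GTPase gene Rhob (−0.04), the metallothionein gene Mt1 (−0.11), Gpd1 (0.03) and Fkbp4 (0.15), none past the threshold in edgeR (adjusted p = 1.00 each). From CT10 to CT22 in WT, Fkbp4, the gene of a co-chaperone, went from 117 ± 7.48 to 146 ± 13.6 CPM, a log2 change of 0.31 (SE 0.10, edgeR adjusted p = 0.722), opposite in sign to the median of the 10 genes.

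**Figure D5:**
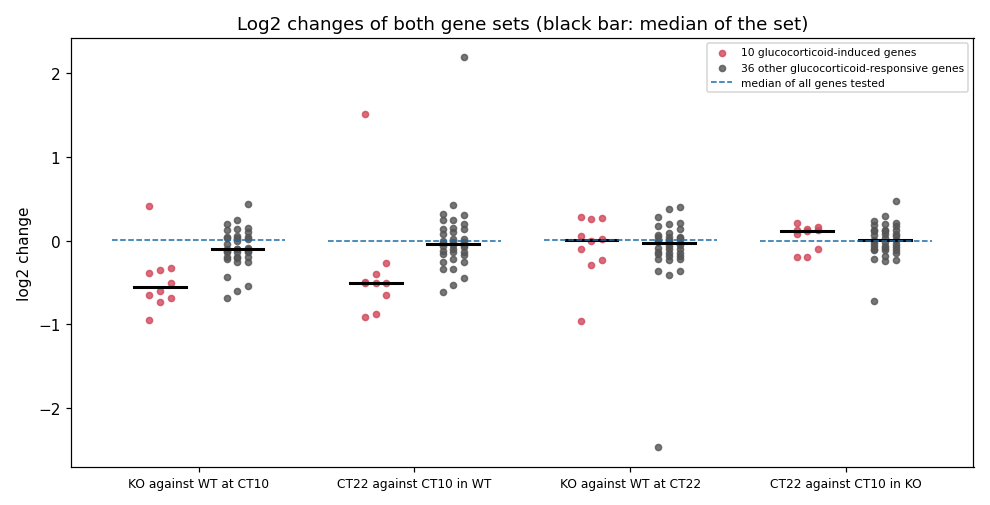
Log2 change (y axis) of the 10 glucocorticoid-induced genes (red) and the 36 other glucocorticoid-responsive genes (grey) in 4 comparisons (x axis). Black bars are the medians of each set and dashed lines the median of all genes tested. In the first 2 comparisons, which share the WT CT10 libraries and from which the 10 genes were chosen or which share their libraries, the red medians are −0.56 and −0.51 and the grey ones −0.10 and −0.04.

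The receptors were measured in all libraries. Nr3c1 was at 75.2 ± 8.29 CPM in WT CT10, 79.3 ± 6.65 CPM in KO CT10, 82.0 ± 11.5 CPM in WT CT22 and 84.8 ± 4.44 CPM in KO CT22. Nr3c2 was at 159 ± 15.1, 142 ± 16.7, 117 ± 17.1 and 143 ± 48.1 CPM. Neither passed the threshold in edgeR at CT10 (log2 change 0.07, SE 0.11, and −0.16, SE 0.20, adjusted p = 1.00 each) or at CT22 (0.05 and 0.30, adjusted p = 0.890 and 0.584). Of the 15 genes of receptors, chaperones and coregulators 6 were lower in KO at CT10 (median 0.02) and 4 at CT22 (median 0.21), with 0 called in edgeR and DESeq2. An unadjusted p under 0.05 was found for 0 of the 15 at CT10, where 3.09% of all genes had one, and for 4 at CT22, against 10.9%. The counts lower in KO were 8 at CT10 (−0.01) and 5 at CT22 (0.11) without the 2 KO libraries. In CT22 against CT10 within WT, Nr3c2 fell from 145 to 175 CPM at CT10 to 105 to 136 CPM at CT22, without overlap. Of all genes 8.54% had that arrangement, and Nr3c1 overlapped. In this step 8 of the 15 genes were lower (median −0.02), with 0 past the edgeR threshold. An unadjusted p under 0.05 was found for 1 of them, against 6.76% of all genes.

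Genes around the 10 products were counted from lists of their pathways. Of 26 tested paralogs of the 10 genes (SGK, TSC22, KLF, IkappaB, HIF and perilipin families) 14 were lower in KO at CT10, with log2 changes from −0.72 to 0.49 and a median of −0.03, and 9 at CT22 (median 0.04). The mTOR and PI3K genes, of the pathways of Ddit4 and Sgk1, had 11 of 19 lower at CT10 (median −0.02) and 6 of 19 at CT22 (0.13). The NF-kappaB genes, members and targets of the pathway of Nfkbia, had 8 of 13 lower at CT10 (−0.04) and 6 of 13 at CT22 (0.02). The hypoxia-induced genes had 6 of 13 lower at CT10 (0.02) and 8 of 13 at CT22 (−0.05), and the aryl hydrocarbon receptor genes 2 of 5 (0.02) and 0 of 5 (0.24). ErbB receptors and feedback inhibitors had 4 of 11 lower at both labels (0.08 and 0.06), and lipid droplet genes 4 of 8 (−0.04) and 5 of 8 (−0.07). Activity-induced genes had 8 of 13 lower at CT10 (−0.08) and 5 of 13 at CT22 (0.14), and core clock genes 7 of 16 (0.01) and 4 of 16 (0.08). In none of these lists did a gene pass the threshold in edgeR at either label, or in DESeq2 where it gave an adjusted p. At an unadjusted p under 0.05 the counts at CT10 were 3, 0, 1, 2, 1, 1, 0, 0 and 1 in the order given, and at CT22 they were 2, 2, 0, 1, 0, 0, 1, 1 and 1, beside 3.09% and 10.9% of all genes. With the 2 KO libraries left out, the activity-induced genes had 11 of 13 lower in KO at CT10 (−0.28), the aryl hydrocarbon receptor genes 4 of 5 (−0.08), the NF-kappaB genes 5 of 13 (0.04) and the ErbB genes 7 of 11 (−0.07). At CT22 the lipid droplet genes then had 7 of 8 lower (−0.16) and the core clock genes 8 of 16 (0.04).

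Markers of the cell types a hippocampal dissection can hold were summed per library. Choroid plexus markers were higher in KO for 10 of 10 genes at both CT labels (median log2 change 1.04 at CT10 and 1.18 at CT22), with summed levels of 113 to 1611 CPM in WT CT10, 168 to 3569 CPM in KO CT10, 168 to 1574 CPM in WT CT22 and 90.5 to 3770 CPM in KO CT22. Meningeal markers were higher in KO for 9 of 10 genes at CT10 (146 to 316 CPM in WT and 221 to 457 CPM in KO). At CT22 they were higher in KO for 8 of 10 (236 to 421 and 316 to 673 CPM). Endothelial markers were higher in KO for 8 of 10 at CT10 (234 to 269 and 251 to 302 CPM) but lower in KO for 7 of 10 at CT22 (276 to 349 CPM in WT and 278 to 313 CPM in KO). Pericyte and smooth muscle markers were higher in KO for 8 of 8 at CT10 (182 to 220 and 195 to 238 CPM), and 5 of 5 blood genes (169 to 234 and 150 to 496 CPM). At CT22 the counts higher in KO were 7 of 8 (175.9 to 321.5 and 249 to 327 CPM) and 4 of 5 (118 to 224 and 170 to 264 CPM). Astrocyte markers were lower in KO for 8 of 10 at CT10 (5860 to 6740 and 5519 to 6430 CPM), microglia markers for 9 of 10 (520 to 557 and 479 to 538 CPM) and neuron markers for 7 of 11 (7067 to 7660 and 6907 to 7560 CPM). At CT22 neuron markers were instead higher in KO for 8 of 11 (6368 to 6836 and 6739 to 7491 CPM). Astrocyte markers at CT22 were lower in KO for 6 of 10, with a median log2 change of −0.029 (5406 to 6226 CPM in WT and 5795 to 6625 CPM in KO). Oligodendrocyte markers were higher in KO for 9 of 10 at CT10 (4152 to 7627 and 5416 to 7349 CPM). At CT22, oligodendrocyte markers were lower in KO for 10 of 10 genes (5853 to 7406 CPM in WT and 3563 to 6492 CPM in KO) and microglia markers for 9 of 10 (500 to 585 and 452 to 485 CPM). In CT22 against CT10 within WT, endothelial, meningeal (236 to 421 CPM at CT22) and oligodendrocyte markers were each higher for 10 of 10 genes. For oligodendrocyte markers the median log2 change was 0.065 and the summed levels overlapped. They were 4152, 6854 and 7627 CPM in WT CT10 against 5853, 6941 and 7406 CPM in WT CT22. Oligodendrocyte markers were lower in KO for 4 of 10 at CT22, and microglia markers for 5 of 10 at CT10, without the 2 KO libraries. The choroid plexus counts each rested on 1 library, since without KO CT10 replicate 1 they were lower in KO for 10 of 10 at CT10, and without KO CT22 replicate 3 for 9 of 10 at CT22. Without WT CT10 replicate 3 oligodendrocyte markers were lower in KO for 7 of 10 at CT10. No marker passed the threshold in edgeR in these comparisons with all libraries. For KO against WT, an unadjusted edgeR p under 0.05 was found for 3 of 10 astrocyte markers at each CT label. It was found for 5 of 10 microglia markers at CT22 and 0 at CT10. Each other marker list had 0 or 1 at either label, beside 3.09% of all genes at CT10 and 10.9% at CT22. DESeq2 called 2 astrocyte markers and 1 blood gene in KO against WT at CT22, where it called 0.317% of all genes, and 1 endothelial marker in CT22 against CT10 in WT, where it called 0.0283%. The part of these cell types in the levels of the 10 genes was not tested.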

How the data were processed

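Hippocampal RNA from 12 libraries was prepared with a stranded poly(A) kit and sequenced on an Illumina HiSeq as paired or single reads, per the labels' protocols, which do not say which library was which. FastQC, TopHat 1.3.3, RSEM 1.2.5, edgeR 3.0.6 and the build mm10 are named in the submitters' processing notes. Each deposited table gives estimated counts, and also TPM, for 30383 transcripts, per the file headers. Strand use in the counting is not stated, so genes that overlap, on either strand, are uncertain. The authors' deposited comparison table was not used here.

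Estimated counts were summed per gene symbol and rounded. In R 4.3.3, edgeR 4.0.16 filtered low counts by group (filterByExpr, minimum count 10), scaled libraries by TMM (factors 0.979 to 1.021) and fitted 4 group means to all 12 libraries by robust quasi-likelihood (8 residual degrees of freedom, biological coefficient of variation 12.3%). The SE is the log2 change divided by the square root of its F statistic. p-values were adjusted by Benjamini-Hochberg over 14131 genes, with a threshold of 0.05. The procedure was tested on simulated data. Library totals of 4435606 to 10911046 set the precision, and 0 pairs of libraries were identical. Groups and replicate numbers came from the sample titles.

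The 10 genes and the gene lists were chosen with earlier results of these data known. Named genes were Nono, the 10 genes, list members past the threshold, the 6 most abundant other glucocorticoid-responsive genes, Nr3c1, Nr3c2 and the 10 genes most correlated with the mean standardised log2 CPM of the 10 genes. Dbp, Nr1d1, Fkbp5, Per1, Sfpq and the 5 neuronal markers were named outside that rule, after their values were seen. Alternatives were DESeq2 1.42.0, its size factors, no filter, a replicate block, only the groups compared, limma 3.58.1 on unrounded sums (prior count 2) and leaving out each library. Promoter windows came from RefSeq (GRCm38.p6, 250 bases before to 50 after a start). The lists missed 4 symbols absent under those names from the tables (Ciart, Map2, Hbb-bs and Hbb-bt).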

Additional observations from a re-analysis of the deposited data

Results flagged for a closer look

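For Tiparp the KO effect at CT22 minus that at CT10 was 0.775 on the log2 scale. It is listed because every KO library lay below every WT library at CT10 and above every WT library at CT22. For Errfi1, with the same arrangement, the value was 0.606. The CT10 part of this arrangement comes from the comparison that chose the genes, so nothing is read from it. The CT22 part alone was found in 7.25% of all genes, and the share with both parts was not counted. The difference between the CT labels was not tested for either gene, since the CT10 values chose the genes. Without the 2 KO libraries that did not follow their label by Dbp and Nr1d1 the log2 changes of KO against WT were −0.70 at CT10 and 0.15 at CT22 for Tiparp, and −0.42 and 0.30 for Errfi1.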

How the results depend on the processing

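Of 190 values of the 10 genes at CT22 under 19 alternatives, 0 passed the threshold (lowest adjusted p = 0.239; DESeq2 gave none for Hif3a and Plin4, so 188 had one). The log2 change of KO against WT at CT10 kept its sign in all of them for 9 genes (not Plin4), and that of CT22 against CT10 in WT for all 10. Of 760 values outside KO against WT at CT22, 6 moved by over 1 SD, a measure other than the SE. Several moved by more than their SE when the 2 KO libraries that did not follow their label were left out. In CT22 against CT10 within KO, Hif3a went from −0.196 (SE 0.3) to −0.959, and Plin4 from 0.138 (SE 0.556) to 1.101. Without the 2 KO libraries that did not follow their label by Dbp and Nr1d1, an alternative chosen after seeing the data, the CT22 values of Sgk1 and Ddit4 were −0.004 and −0.15, and 6 of the 10 genes were lower in CT22 against CT10 within KO, against 3 with all libraries. With single libraries left out, the CT22 log2 changes ran from −0.118 to 0.145 for Sgk1 (lowest without WT CT22 replicate 1), −0.156 to 0.143 for Ddit4 (lowest without KO CT22 replicate 1), −0.281 to 0.041 for Nfkbia (highest without WT CT22 replicate 2), −0.043 to 0.026 for Klf15 (highest without WT CT22 replicate 3), −1.74 to −0.49 for Plin4 (lowest without KO CT22 replicate 2, highest without KO CT22 replicate 1), and −0.77 to −0.014 for Hif3a and 0.09 to 0.40 for Klf9 (both lowest without KO CT22 replicate 1 and highest without KO CT22 replicate 3). For Tsc22d3, Tiparp and Errfi1 they stayed within −0.36 to −0.22, 0.15 to 0.34 and 0.22 to 0.33. The CT22 value of Sgk1 was −0.005 without KO CT22 replicate 1, and that of Ddit4 −0.07 without WT CT22 replicate 1. The number of the 10 genes lower in CT22 against CT10 within KO was 2 to 6 (6 without KO CT22 replicate 1).

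Over all genes, KO against WT at CT22 called 2 genes, and 30 with DESeq2, 1 with the replicate block, 1 with only the CT22 groups, 1 without the 2 libraries and 1 to 4 with single libraries left out (4 without WT CT22 replicate 1). At CT10 it called 1, 3 with DESeq2, 4 with only the CT10 groups and 1 with each library left out. Over both labels it called 3, 10 without the filter, 22 with DESeq2, 1 with the replicate block, 1 without the 2 libraries and 1 to 8 with single libraries left out (8 without WT CT22 replicate 1). CT22 against CT10 in WT called 0 (955 at an unadjusted p under 0.05), 4 with DESeq2, 2 with only the WT groups, 1 without the 2 libraries and 0 to 1 with single libraries left out. In KO it called 0 (447 at an unadjusted p under 0.05, and 0 with DESeq2), and 1 without the 2 libraries (Dbp, by which they were set apart). The causes of these differences were not tested. Deviations of same-numbered libraries from their group means had r from −0.237 to 0.328 in 18 pairs. With so few libraries per group, this cannot show whether same-numbered libraries were prepared together. The main fit did not pair them. The low counts of Hif3a (19 to 139) and Plin4 (9 to 88) limit their precision, above all in KO CT22 replicate 2, the shallowest library.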
